A study of Mus musculus with 6 samples.

Results

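Mature Retnlg-high neutrophils of the lung are described here as a class of single cells chosen by their own transcripts. A cell was a member when it held at least 1 count of at least 3 of the 6 genes Csf3r, Cxcr2, G0s2, Hdc, Il1r2 and Mmp9, and at least 3 counts of Retnlg. It also had to lack any count of Il1a, Csf1, Cxcl3, Camp, Cd3e, Ncr1 and Siglech, and to hold fewer than 2 counts each of Cd79a and C1qa. Among 23322 cells with 500 to 4000 expressed genes and at most 15000 counts, 1928 were members, of which 1207 came from the PD-1 agonist pool and 721 from the isotype pool. The gene counts of these same cells chose the members, so the levels of the gate genes are given as a description.

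The study profiled live CD45+ cells, that is cells of haematopoietic origin, sorted from the lungs of mice 6 to 8 weeks old by droplet single-cell RNA sequencing. All mice were of the humanized PD-1 strain, in which the inhibitory T cell receptor PD-1 carries human sequence. The treated mice received a human PD-1 agonist antibody and the control mice an isotype antibody, with 3 mice in each group combined by cell hashing. The series title places the mice in a model of neutrophilic asthma, whose induction is not described in the labels, nor are the antibodies' dose and timing. Each treatment has 3 deposited tables, 1 labelled for each mouse. The treatment column inside the isotype tables reads "Untreated", whereas the sample labels read isotype; the labels were followed.

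Neutrophils are short-lived granulocytes that mature in bone marrow under granulocyte colony-stimulating factor, whose receptor is Csf3r, and leave it through the chemokine receptor Cxcr2. They make their granule proteins in successive waves during maturation, and the S100a8 and S100a9 proteins fill much of the cytosol of the mature cell. In inflamed airways they can take up a second programme of cytokine and chemokine genes, and they respond to interferons with large sets of guanylate-binding proteins, antiviral effectors and antigen-processing genes.

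The tables of 1 treatment were not independent. They held 6615, 6749 and 6668 cells for the agonist and 6481, 6438 and 6393 for the isotype, but any 2 tables of the same treatment shared 2373 to 2736 cell barcodes, or 35.9% to 42.5% of the smaller table, against 3 to 13 barcodes between tables of different treatments. Among member cells, 105 to 176 were shared between tables of the same treatment and 0 between treatments. Each barcode was therefore counted once per treatment, which left 1 pool for each antibody and no replicate. No test between treatments is possible, values of the 3 tables show repeat measurements of overlapping cells, and 95% intervals cover counting error only. The antibody and the library cannot be told apart. Total counts before the cell filters were 21556545 to 25572101 in an agonist table and 24867171 to 29749815 in an isotype table.

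Genes that the gate did not use marked the members as neutrophils. At least 1 count of S100a8 was present in 99.6% of agonist and 100% of isotype members, against 20.1% and 13% of the B cells and 22% and 14.6% of the T cells of the same pools. Trem1, an activating receptor of myeloid cells, was present in 80% and 80.3% of members, against 7.76% and 6.76% of B cells. Lcn2, the iron-scavenging granule protein lipocalin-2, was present in 57.7% and 57.6% of members against 3.42% and 3.24% of B cells. The median total count was 1600 in agonist and 1670 in isotype members, against 2300 and 2590 in B cells, which were the deeper cells. Rdh12, a retinol dehydrogenase, was present in 49% of agonist and 37.9% of isotype members, against 9.34% and 7.84% of B cells. Ly6g, the classical surface marker of mouse neutrophils, was seen in 9.61% and 9.85% of members, against 0.789% and 0.541% of B cells.

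Granule genes made early in maturation were seen in few members, as far as droplet counts of this depth show. Mpo and Elane, a peroxidase and a protease of the primary granules, had no count in any member; a count of 0 in shallow cells limits the cells with a count, at up to 0.249% of agonist and 0.416% of isotype members, and not the cells that express the gene. Ltf, the lactoferrin of the secondary granules, was present in 0.497% and 1.11% and Ngp, another secondary granule gene, in 4.72% and 4.99%, while Chil3 was present in 9.61% and 12.6%, against 9.34% and 9.46% of B cells. The gate removed cells with Camp, a gene of the same granules, so these shares are not independent of it. The gate genes themselves were detected in 96.8% and 97.9% of members for Csf3r, 86.8% and 86.5% for Cxcr2 and 91.6% and 92.6% for Mmp9, the gelatinase of the tertiary granules. Retnlg had a median of 16 counts per agonist and 14 per isotype member. Retnlg encodes a secreted resistin-like protein of mouse myeloid cells, at chr16:48872621-48874496 on the plus strand of GRCm38.

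At the Retnlg threshold the cells formed no step. Neutrophils of the gate just outside it, with 2 counts, held 226 (73 agonist cells) and 283 (41 isotype cells) S100a8 counts per 10000. Members just inside it, with 3 counts, held 243 (49 agonist cells) and 255 (42 isotype cells). Neutrophils without Retnlg held 57.6 and 54.5, and members with at least 40 Retnlg counts held 795 and 787.

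Members made up a larger share of the cells in the agonist pool than in the isotype pool. The agonist tables held 611 of 6024 cells (10.1%, 95% Clopper-Pearson interval 9.39% to 10.9%), 578 of 5938 (9.73%, 8.99% to 10.5%) and 548 of 5900 (9.29%, 8.56% to 10.1%). The isotype tables held 381 of 5733 (6.65%, 6.01% to 7.32%), 397 of 5803 (6.84%, 6.2% to 7.52%) and 359 of 5748 (6.25%, 5.63% to 6.9%). The lowest agonist table lay above the highest isotype table. Pooled, members were 9.88% (9.36% to 10.4%) of agonist and 6.49% (6.04% to 6.97%) of isotype cells. A share also moves with the other cells sorted: the T cell gate held 833 agonist and 1133 isotype cells, and the B cell gate 760 and 370.

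Within the neutrophils the balance between the mature members and an activated class differed between pools. Activated cells are defined as cells that pass the same neutrophil genes but hold Il1a (interleukin-1 alpha), Csf1 (macrophage colony-stimulating factor) or Cxcl3 (a neutrophil-attracting chemokine). Members were 45.5% (43.6% to 47.4%) of the cells in 4 neutrophil gates in the agonist pool and 33.3% (31.3% to 35.3%) in the isotype pool. Activated cells numbered 1076, or 40.5% (38.7% to 42.4%), in the agonist pool and 1165, or 53.8% (51.7% to 55.9%), in the isotype pool. Neutrophils with fewer than 3 Retnlg counts were 13.1% and 11.9%. Cells rich in granule genes, chosen by their counts of Camp, Ngp and Ltf, were 0.904% and 1.02%. All 4 gates together were 21.7% (21% to 22.5%) of agonist and 19.5% (18.8% to 20.3%) of isotype cells.

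**Figure D1:**
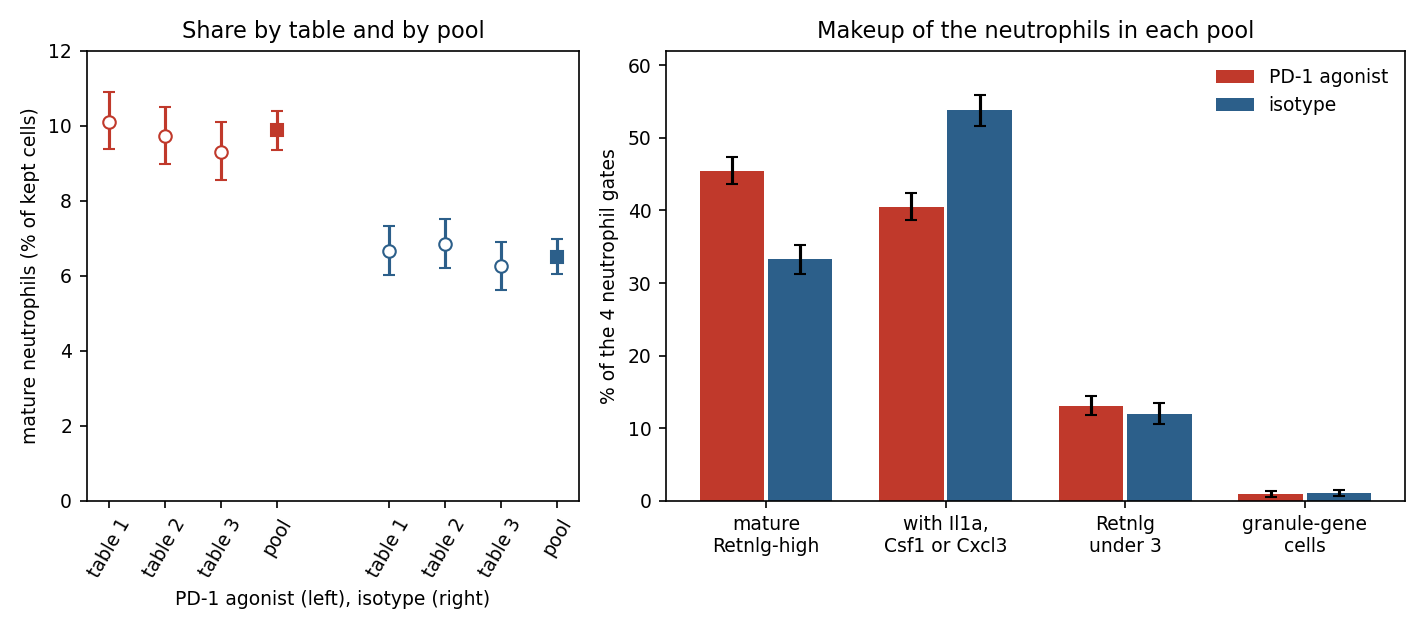
Left, mature Retnlg-high neutrophils as a percent of kept cells in the 3 tables (open circles) and the pool (square) of each treatment; right, the makeup of the 4 neutrophil gates in each pool. Bars are 95% Clopper-Pearson intervals; the agonist tables lie between 9.29% and 10.1% and the isotype tables between 6.25% and 6.84%, and tables of a treatment share cells.

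The difference was of like size at equal depth. After every cell was thinned to 1000 counts, members were 1166 of 11452 agonist cells (10.2%, 9.63% to 10.8%) and 711 of 10559 isotype cells (6.73%, 6.26% to 7.23%). They were then 49.7% and 37.3% of the 4 neutrophil gates, and activated cells 29.3% and 38.6%. Among cells with fewer than 500 expressed genes, which the gate leaves out, 172 of 1035 in the agonist pool (16.6%) and 62 of 667 in the isotype pool (9.3%) met the other criteria.

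Retnlg level ordered the neutrophils of both pools. In thinned neutrophils, cells with at least 20 Retnlg counts per 1000 were 16.9% in the agonist pool and 10.4% in the isotype pool, and cells with none were 24% and 34.7%. S100a8 went with Retnlg: its mean per 1000 over the 5 Retnlg classes, low to high, was 11.7, 24.9, 45.5, 62 and 91.9 in the agonist pool, and 12.1, 25.5, 43.1, 57 and 84 in the isotype pool. Genes of activation ran the other way. Cxcl2, a ligand of Cxcr2, averaged 18.3 and 18.9 without Retnlg and 8.89 and 10.7 in the highest class, and Ccl3, a chemokine for monocytes and T cells, 1.52 and 1.83 against 0.0631 and 0.116. These classes share the counts of the same cells with the gate and are given as a description.

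**Figure D2:**
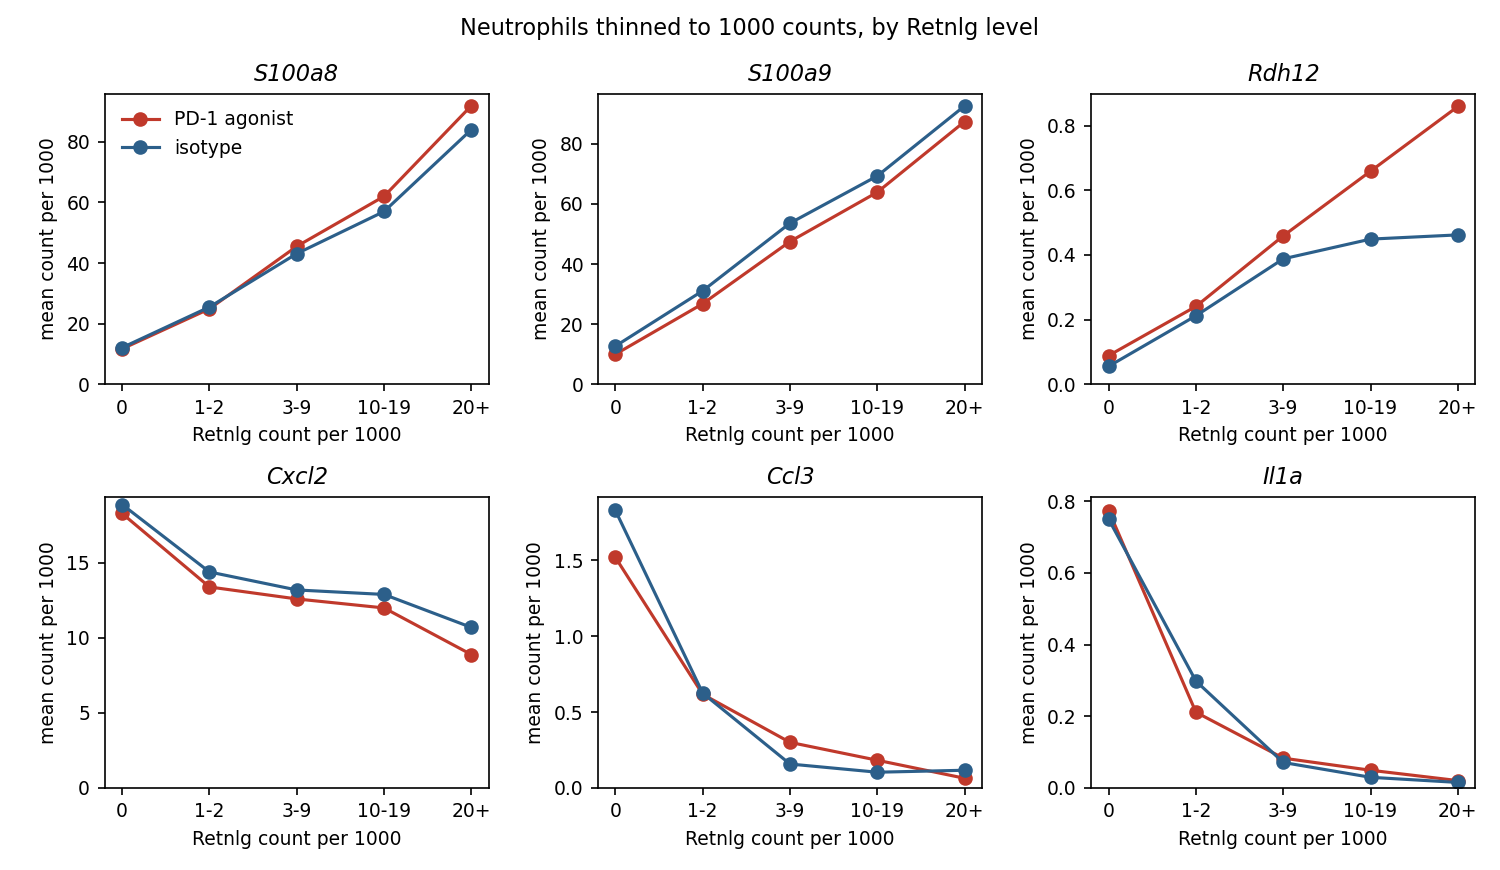
Mean counts of 6 genes per 1000 (vertical axes from 0) in neutrophils thinned to 1000 counts, by Retnlg class on the horizontal axis, with the PD-1 agonist pool in red and the isotype pool in blue. S100a8, S100a9 and Rdh12 are higher and Cxcl2, Ccl3 and Il1a lower at high Retnlg in both pools; Rdh12 reaches 0.859 in the agonist and 0.462 in the isotype pool.

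Across single members, the genes most like Retnlg were S100 and granule or secretory genes. By Pearson correlation of log-scaled counts over members of each pool, S100a8 stood at 0.56 in the agonist and 0.57 in the isotype pool and S100a9 at 0.57 and 0.56. Wfdc21 (0.39 and 0.34), Mmp8, the neutrophil collagenase (0.32 and 0.32), S100a6 (0.30 and 0.34), Pglyrp1, a peptidoglycan-binding granule protein (0.28 and 0.31), Lcn2 (0.27 and 0.32) and the chemokine Ccl6 (0.27 and 0.27) followed, all with members as points and library, depth and gate in common. Levels of Retnlg and S100a8 were higher still in the cells rich in granule genes, at 227 and 1490 per 10000 counts in the agonist pool, against 128 and 531 in members. The genes most uneven among members, by variance of counts over that of equal sampling, were S100a8 (56.3 in the agonist and 54.2 in the isotype pool) and S100a9 (45.6 and 50.1). Next were the chemokines Cxcl2 (16.1 and 16.5) and Ccl4 (16 and 17.9), then Cd74, the invariant chain of antigen presentation (13.6 and 16.6), and the interferon-inducible Cxcl10 (11 and 12.3), against a median of 1.32 over 1184 genes in both pools. Of the Cd74 counts, 2108 in agonist and 1620 in isotype members lay in the doublet-like cells defined below, against 196 and 156 in the other members. Il1b, Fth1, Rsad2, Plac8, S100a6, Junb, Thbs1, Wfdc17 and Dusp1 completed the 15 most uneven genes, with ratios of 6.78 to 12.2 in agonist and 6.89 to 9.07 in isotype members.

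Against the activated neutrophils, members held more of the maturation genes and less of the inflammatory genes in both pools. The activated gate sets no Retnlg level, and Retnlg was present in 58.6% of its agonist and 48.8% of its isotype cells. Genes that go with Retnlg in single cells, such as S100a9, Mmp8, Lcn2 and Wfdc21, are therefore not independent of the rule. Their higher levels in members are given as a description. Of 7045 genes, 564 (8.01%) were at least 1.5-fold higher and 718 (10.2%) at least 1.5-fold lower in members in both pools. Among 19 measured maturation genes, 14 were higher, with a median log2 ratio of 1.09 in the agonist and 1.47 in the isotype pool. In CPM, a count as its part per 1000000 counts of the pool, scaled between each pair of gates, Rdh12 stood at 549 in members and 186 in activated cells of the agonist pool, and 369 and 95.6 in the isotype pool. Mmp8 stood at 482 against 168 and 466 against 126, and Lcn2 at 1090 against 391 and 1180 against 306. S100a9 stood at 56300 against 20200 CPM in the agonist pool and 60100 against 16400 in the isotype pool. Ngp (log2 3.26 and 2.11), Scrg1 (2.08 and 2.33), Wfdc21, Zfand4, Ly6g and Rnf144a were the others of the 10 leading genes.

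Cytokine and chemokine genes were among those lower in members. Tnf, the cytokine tumour necrosis factor, stood at 14.2 CPM in members and 190 in activated cells of the agonist pool, and at 22.5 and 231 in the isotype pool. Ccl4 stood at 298 against 2640 and 447 against 2750, and Inhba, the activin A subunit, at 16 against 117 and 11.6 against 104. Fmnl2, a formin of actin filaments, had log2 ratios of -3.80 and -4.16, and the transcription factor Creb5 -3.55 and -2.83. Scimp, Ralgds, Fam20c, Slc31a2 and Clec4n completed the 10. By list, 7 of 11 chemokines were lower (median log2 -1.28 in the agonist and -0.89 in the isotype pool), as were 10 of 20 genes of Tnf and NF-kB feedback (-0.85 and -0.72) and 19 of 27 type II interferon response genes (-1.46 and -1.23). Of 31 type I interferon genes, 12 were lower and 1 higher, and AP-1 genes were 2 higher and 2 lower of 19. Il1a, Csf1 and Cxcl3 themselves define the gates and were not counted as results, and genes that go with them in single cells are not independent of the rule either. Of 9 macrophage and monocyte markers 2 were also lower in members, with medians of -0.48 and -0.43; Ccr2 stood at 0.846 per 10000 counts in members and 1.55 in activated cells of the agonist pool, and at 0.983 and 1.97 in the isotype pool. After doublets called by Scrublet and cells with over 1200 genes were left out of both gates, a setting chosen after the data were seen, 1038 members and 722 activated cells remained in the agonist pool and 637 and 715 in the isotype pool. Of 4103 genes, 444 (10.8%) were then higher and 474 (11.6%) lower in members in both pools. Among them 18 of 23 type II interferon genes were lower (medians -2.06 and -1.82), as were 14 of 30 type I genes, 12 of 20 Tnf and NF-kB genes and 7 of 10 chemokines, while 14 of 19 maturation genes were higher and 0 of 4 macrophage and monocyte markers lower.

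**Figure D3:**
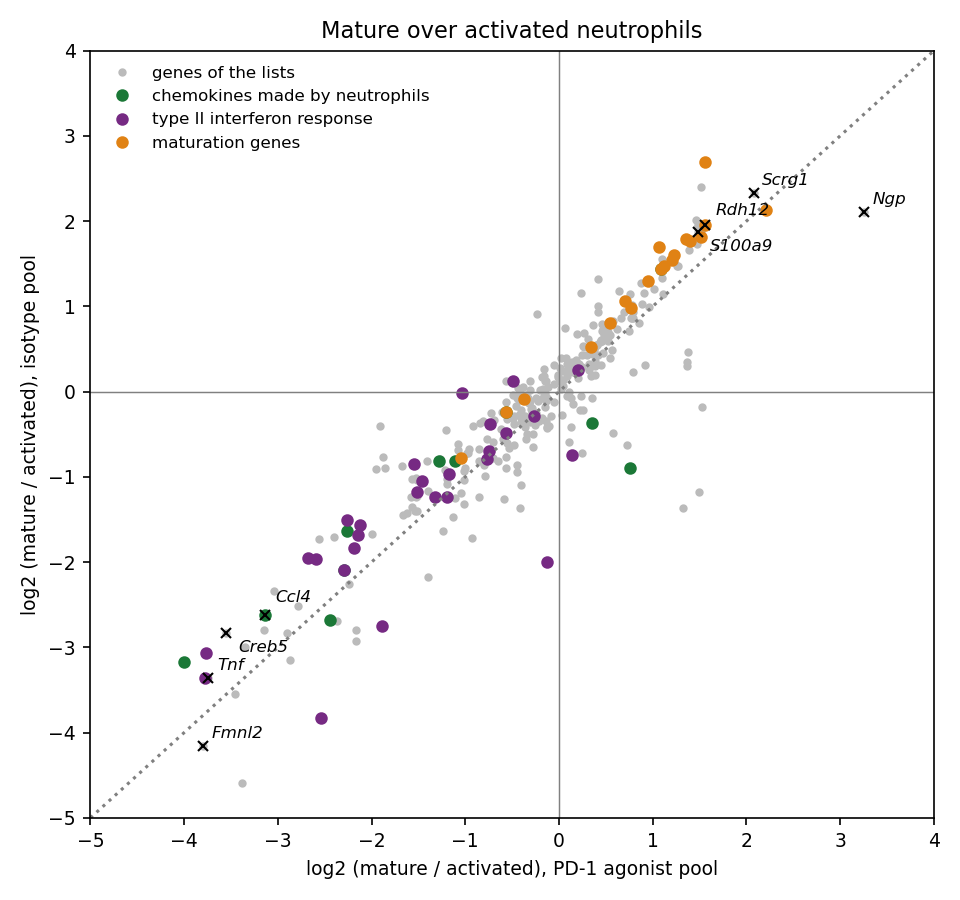
Log2 ratio of members over activated neutrophils in the PD-1 agonist pool (horizontal) and the isotype pool (vertical), 1 point per gene of the lists, with 3 lists coloured and 8 named genes crossed; the dotted line marks equal ratios. Maturation genes lie mostly at the upper right and chemokines and type II interferon genes mostly at the lower left, with Tnf at -3.74 and -3.36.

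Against neutrophils with fewer than 3 Retnlg counts, members were higher in both pools in 14 of 14 measured identity genes (median log2 1.39 in the agonist and 1.53 in the isotype pool) and in 16 of 19 maturation genes, where 962 of 4834 genes (19.9%) were higher and 307 (6.35%) lower. The rule splits these groups by Retnlg alone. Genes that go with Retnlg in single cells are thus set in part by the rule, and their levels are descriptions. Cells called doublets were kept in both groups. S100a8 stood at 62600 CPM in members against 9050 in the agonist pool and 55600 against 8100 in the isotype pool. A monocyte gene was among those lower in members: Ccr2, the monocyte chemokine receptor, stood at 99.7 CPM against 261 and 117 against 288. Against the 24 agonist and 22 isotype cells rich in granule genes, 897 of 3679 genes (24.4%) were higher and 188 (5.11%) lower in members. There 9 of 10 secondary granule genes were lower. The cells rich in granule genes were chosen by their counts of Camp, Ngp and Ltf, and members lack Camp by the gate. The levels of Ltf and Ngp, and part of the granule list, are therefore set by the rules and are descriptions. Ltf stood at 2.51 CPM in members against 8740 in the agonist pool and 5.11 against 8740 in the isotype pool, and Ngp at 63.5 against 28500 and 62 against 28500. AP-1 genes were higher in 13 of 18, chemokines in 8 of 10 and type II interferon genes in 17 of 20.

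Between treatments, members of the agonist pool held less of an interferon-inducible set and of several immediate early transcription factors than isotype members. Most genes of neutrophil identity, of the secondary and tertiary granules and of the S100 family differed by less than 1.5-fold, as did most genes measured. Of 6111 genes with at least 50 counts, 454 (7.43%) were at least 1.5-fold higher and 284 (4.65%) at least 1.5-fold lower in the agonist pool. Among 4198 protein-coding genes with little sequence shared with other genes these were 185 (4.41%) and 182 (4.34%), with a median log2 ratio of -0.02. Called here means past 1.5-fold, with no test, and counts of called genes in a list are to be read beside these shares. Lack of overlap between the tables of the treatments, given below for single genes, rests on tables that share cells. It restates the difference of the pools and is no replication. The share of all genes that lack such overlap is not given. In pools of cells, fewer cells with a transcript and less of it per cell cannot be told apart from sums, so the numbers of cells are given for the main genes.

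Cells carrying transcripts of other cell types entered the sums. Scrublet called 120 of 1207 agonist members (9.94%) and 43 of 721 isotype members (5.96%) doublets. After these and members with over 1200 expressed genes were left out, 1038 agonist and 637 isotype cells remained; every ratio marked below as "in the remaining cells" refers to them, a setting chosen after the data were seen. There 272 of 4265 genes (6.38%) were at least 1.5-fold higher and 203 (4.76%) lower. The 169 agonist and 84 isotype cells left out, called doublet-like below, held 561 and 135 of the counts of the T cell markers, against 55 and 41 in the remaining cells. For natural killer (NK) cell markers they held 742 and 125 counts, against 80 and 28 in the remaining cells. For B cell markers they held 539 and 526 counts, against 103 and 119, and for macrophage and monocyte markers 1705 and 1172, against 782 and 624.

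The type II interferon response is the set of genes that interferon-gamma induces through transcription factors that include Irf1. Of its 25 measured genes, 13 were at least 1.5-fold lower and 1 higher in the agonist pool, against 4.65% and 7.43% of all genes, with a median log2 ratio of -0.63. In the remaining cells 8 of 18 were lower and 0 higher, with a median of -0.53. Gbp2, a guanylate-binding protein that coats pathogen vacuoles (ENSMUSG00000028270.12, chr3:142620602-142638008 of GRCm38, plus strand), stood at 201, 209 and 157 CPM in the agonist tables, against 394, 494 and 391 in the isotype tables. The tables did not overlap between treatments. The pools held 445 Gbp2 counts in 219 of 1207 agonist members and 628 counts in 186 of 721 isotype members, a log2 ratio of -1.17 (-1.35 to -1.0), and of -1.06 in the remaining cells.

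Irf1 (chr11:53770014-53778374, plus strand), the transcription factor that interferon-gamma induces first, had 410, 419 and 369 CPM in the agonist tables, against 735, 801 and 660 in the isotype tables. Its log2 ratio was -0.80 (-0.93 to -0.68), with counts in 452 agonist and 387 isotype members, and -0.78 in the remaining cells. Irgm1, an immunity-related GTPase, had 101, 97 and 102 CPM against 212, 186 and 188. Psmb9, a subunit of the immunoproteasome, had 135, 154 and 163 against 241, 239 and 191, whereas B2m, the constant chain of class I molecules, differed less at 3310, 3160 and 3250 against 4090, 3950 and 3850. None of these 4 genes overlapped between the tables of the treatments. Smaller differences lay in Psmb8 (log2 -0.31), Tap1 (-0.28) and Nlrc5 (-0.22), and Nlrc5 was at 0.06 in the remaining cells. Gbp4, at 1.09, was the gene called higher, but 22.7% of its 31-base words occur in other genes and it stood at 0.03 in the remaining cells. Igtp, Gbp7, Tgtp1 and Tgtp2, all called lower, also share sequence with relatives, so counting could have divided their reads between them.

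The type I interferon response, the antiviral set, had 10 of 29 measured genes lower and 1 higher in the agonist pool, with a median log2 of -0.38, and 7 of 28 lower with a median of -0.34 in the remaining cells. Ifi47 (chr11:49076587-49096974, plus strand) was counted in this list, although it is an immunity-related GTPase as Irgm1 of the type II list is. Its level cannot tell the type I and type II responses apart. It had 62, 67.3 and 61.2 CPM in the agonist tables against 164, 144 and 156 in the isotype tables. The log2 ratio of Ifi47 was -1.05 (-1.35 to -0.75), and -1.36 in the remaining cells. Ifit2, an RNA-binding antiviral effector, had 29.8, 40.2 and 32.6 CPM against 64.2, 86.1 and 88.5, a log2 ratio of -1.09 (-1.50 to -0.69). Zbp1, a sensor of Z-form nucleic acid, had 98.2, 106 and 105 against 178, 182 and 162. For each of these 3 genes the highest agonist table was below the lowest isotype table. Rsad2, the antiviral protein viperin, had 332, 418 and 348 CPM against 521, 488 and 555, yet its log2 of -0.41 was -0.23 in the remaining cells. Irf7 (-0.35), Oasl2 (-0.49), Oas3 (-0.11) and Trim30b (-0.03) were lower by less than 1.5-fold. Xaf1, a pro-apoptotic interferon target, was the gene called higher, at 0.59.

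As list sums, interferon counts were spread over many members rather than a few. Much of the type II sum came from B2m and the class I genes H2-D1 and H2-K1. In the remaining cells these held 4915, 4772 and 2842 of 15348 agonist counts, and 3774, 3343 and 2160 of 12441 isotype counts. Called genes were seen in fewer members, such as Gbp2 in 219 of 1207 agonist and 186 of 721 isotype members. In cells thinned to 1000 counts (1137 agonist and 685 isotype members), the type I set summed to a mean of 7.05 in agonist and 8.91 in isotype members, with medians of 5 and 6. Cells with at least 20 type I counts were 4.31% of agonist and 10.8% of isotype members. The type II set averaged 10 and 12.3, with medians of 9 and 11, and 3.87% and 10.9% of members held at least 20 counts. Both the middle and the upper end of the distribution of these list sums were thus lower in the agonist pool. By Retnlg class from low to high (0 to 9, 10 to 19 and at least 20 counts), the type II sum was 10.8, 9.91 and 8.73 in agonist members and 13.2, 11.6 and 10.8 in isotype members. It was lower in the agonist pool in each class. The type I sum was 7.42, 7.11 and 6.35 in agonist members and 8.85, 8.34 and 9.8 in isotype members. Across single members the 2 sums had a Pearson correlation of 0.24 in the agonist and 0.38 in the isotype pool, as a description of cells of 1 library each.

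The promoters of some of these genes are shown because the genes were lower together in the agonist pool; they were chosen after the levels were seen. Capitals mark letters that match TTCNNNGAA, the core of the gamma-activated site, or GAAANNGAAA, the core of the interferon-stimulated response element, searched on both strands. Each is the 250 bases before the RefSeq start on GRCm38.p6, written 5′ to 3′ in the direction of the gene.
Gbp2, chr3:142620413-142620662, plus strand: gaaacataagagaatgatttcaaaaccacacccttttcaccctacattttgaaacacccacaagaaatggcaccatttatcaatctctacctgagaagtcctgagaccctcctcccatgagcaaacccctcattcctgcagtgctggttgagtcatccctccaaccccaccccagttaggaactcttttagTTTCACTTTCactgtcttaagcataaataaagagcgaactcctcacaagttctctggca
Gbp5, chr3:142496684-142496933, plus strand: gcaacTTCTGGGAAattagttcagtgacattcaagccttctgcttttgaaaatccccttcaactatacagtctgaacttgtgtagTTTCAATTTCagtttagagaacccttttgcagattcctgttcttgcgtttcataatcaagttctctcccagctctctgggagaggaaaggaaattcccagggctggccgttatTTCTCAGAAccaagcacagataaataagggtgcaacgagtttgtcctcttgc
Irf1, chr11:53769764-53770013, plus strand: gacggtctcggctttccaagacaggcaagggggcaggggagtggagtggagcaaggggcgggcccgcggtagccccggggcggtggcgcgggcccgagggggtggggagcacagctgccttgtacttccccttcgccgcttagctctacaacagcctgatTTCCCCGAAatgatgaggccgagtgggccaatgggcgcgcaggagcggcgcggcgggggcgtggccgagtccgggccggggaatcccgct
Cxcl10, chr5:92348890-92349139, minus strand: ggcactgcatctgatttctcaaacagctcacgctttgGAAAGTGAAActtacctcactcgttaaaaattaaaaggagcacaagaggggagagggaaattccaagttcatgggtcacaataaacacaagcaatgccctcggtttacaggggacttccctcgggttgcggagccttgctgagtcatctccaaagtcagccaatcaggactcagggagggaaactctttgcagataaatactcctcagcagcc
Socs1, chr16:10785537-10785786, minus strand: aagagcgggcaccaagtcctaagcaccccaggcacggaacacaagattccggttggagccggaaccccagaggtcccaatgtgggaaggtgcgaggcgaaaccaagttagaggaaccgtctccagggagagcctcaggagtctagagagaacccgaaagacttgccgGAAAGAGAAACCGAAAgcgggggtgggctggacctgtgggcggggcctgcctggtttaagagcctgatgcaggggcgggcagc
GAAANNGAAA occurs in 978 of 32851 RefSeq promoter windows (2.98%) and TTCNNNGAA in 2306 (7.02%). It occurs in 12 of 21 genes of the type II list (57.1%), and TTCNNNGAA in 9 (42.9%). In the type I list the matches are 12 of 26 genes (46.2%) and 3 (11.5%). Lists and named genes are counted by gene, where a match in any of its windows counts. The background is counted by window, so the shares are not in like units. Of the 12 genes named as lower in the agonist pool, 10 have a window, of which 2 (20%) hold each motif. Of the 12 named as higher, 9 have a window, of which 2 (22.2%) hold GAAANNGAAA and 0 hold TTCNNNGAA. The Gbp2 and Gbp5 windows each hold 1 GAAANNGAAA, the Gbp5 window also holds 2 TTCNNNGAA, and the 2 matches of Socs1 overlap. The windows of Ifi47 and Retnlg, and that of a second Irf1 start, hold neither motif in these letters.

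Gbp5, Cxcl10 and Socs1 were low in count but lower in each agonist table. Gbp5, which promotes inflammasome assembly, had 28.2, 27.1 and 25.7 CPM against 64.2, 80.1 and 71.6 (log2 -0.93, and -1.81 in the remaining cells). Socs1, the feedback inhibitor of interferon signalling, had 45.9, 35.8 and 41.5 against 67.9, 71.6 and 59 (log2 -0.69, and -1.20). Cxcl10, a chemokine for Cxcr3-bearing T cells, had 131, 110 and 88.8 against 186, 152 and 174 (log2 -0.42, and -1.06), from counts in only 48 agonist and 37 isotype members. For these 3 genes leaving out the doublet-like cells moved the ratio further from 0.

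Immediate early transcription factors formed the other group lower in the agonist pool. Of 19 AP-1 and immediate early genes, 5 were at least 1.5-fold lower and 0 higher, with a median log2 of -0.29 (5 and 0, and -0.20, in the remaining cells). Jun, an AP-1 subunit (chr4:95049034-95052222, minus strand), had 70, 68.1 and 72.1 CPM in the agonist tables and 153, 127 and 174 in the isotype tables. Its log2 ratio was -1.15 (-1.45 to -0.85), and -1.15 (-1.59 to -0.73) in the remaining cells. Fosb, another AP-1 subunit (chr7:19302696-19310051, minus strand), had 538, 519 and 496 CPM against 830, 981 and 881, with a log2 of -0.82 (-0.93 to -0.70), and Klf2, a zinc-finger factor of quiescent leukocytes (chr8:72319033-72321656, plus strand), had 704, 611 and 636 against 1190, 1110 and 1020, with a log2 of -0.76 (-0.86 to -0.66). Atf3, a stress-induced factor, had 147, 171 and 132 against 241, 258 and 221. The treatments' tables did not overlap for any of the 4 genes. Egr2 (log2 -0.91) was the fifth called gene.

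The other members of that set differed less. Fos had 2540, 2600 and 2570 CPM in the agonist tables against 3150, 3270 and 3310 in the isotype tables, a log2 of -0.35, and Zfp36, which destabilises cytokine mRNA, had 2090, 2000 and 1900 against 2900, 2880 and 2740, a log2 of -0.50. Junb (-0.24), Dusp1 (-0.27), Nr4a1 (-0.24), Ier2 (-0.29) and Klf6 (-0.33) lay below 0, Jund at -0.10 and Fosl2 at 0.15. The AP-1 sum per 1000 counts averaged 30.7 in agonist and 37.5 in isotype members. By Retnlg class from low to high it was 31.8, 33.3 and 26.1 in agonist members and 39.7, 38.2 and 30.9 in isotype members.

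**Figure D4:**
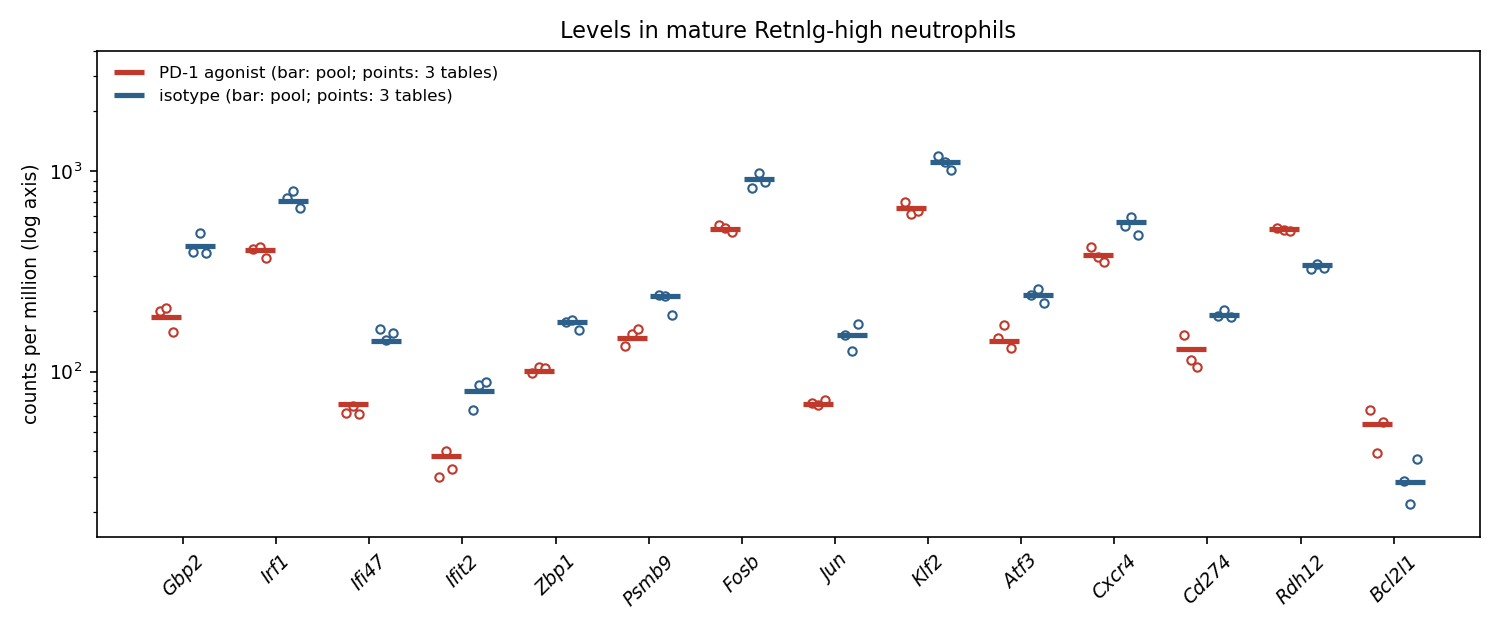
Levels in CPM of 14 genes in mature Retnlg-high neutrophils on a log axis, with the PD-1 agonist pool left (red) and the isotype pool right (blue) of each gene; bars are pools and open circles the 3 tables, which share cells. Gbp2 to Cd274 are lower and Rdh12 and Bcl2l1 higher in the agonist pool, with Gbp2 at 187 and 422 CPM and Rdh12 at 518 and 341 CPM.

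By the rule for named genes, Ffar2, Cd79b, Gatm, Ppp3cb and Zfp608 were lower beside Gbp2, Jun, Ifit2, Ifi47, Fosb, Irf1 and Klf2. Ffar2, a receptor for short-chain fatty acids that guides neutrophils, had 8.86, 9.61 and 2.96 CPM in the agonist tables against 30.9, 35.2 and 18.3 in the isotype tables, a log2 of -1.78 (-2.63 to -0.99) from 20 and 43 counts. Gatm, an enzyme of creatine synthesis, had 23.3, 20.1 and 22.7 against 59.3, 101 and 56.2, a log2 of -1.44. Zfp608, a zinc-finger gene, had 39.5, 35.8 and 29.6 against 71.6, 74 and 66, and Ppp3cb, a catalytic subunit of calcineurin, had a log2 of -1.26. Cd79b, a subunit of the B cell receptor, had a log2 of -1.48, but 33 of its agonist and 58 of its isotype counts lay in the doublet-like cells, against 2 and 3 in the remaining cells. Of the 12 genes the rule would name in the remaining cells, 7 were shared with these.

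Several of the 12 genes named as higher in the agonist pool were T and NK cell genes, with most of their counts in the doublet-like cells. Gzma, granzyme A, had a log2 of 1.79, with 537 agonist and 89 isotype counts in the left-out cells against 65 and 20 in the remaining cells, where its log2 was 1.14. Tcf7, a T cell transcription factor, had a log2 of 2.24, and 0.44 in the remaining cells. Ccl5, a chemokine of T and NK cells, had 1.35 and -0.21, and Ms4a4b, a T cell surface protein, 1.21 and -0.29. Txk (1.51 and 0.76), Ablim1 (1.39 and 0.44), Gramd3 (1.37 and -0.10), Serpinb6b (2.19 and 1.03) and Serpinb9 (1.31 and 0.03) were likewise closer to 0 in the remaining cells, where each of these and Tcf7 had at most 11 counts in a pool. The T cell marker sum was 202, 211 and 347 CPM in the agonist tables against 148, 70.4 and 112 in the isotype tables, and all 6 measured T cell markers and all 3 NK markers were called higher.

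Crem, Cdip1 and Dusp10 completed the 12. Crem, a cAMP-responsive repressor, had 92.6, 85.6 and 74 CPM in the agonist tables against 48.2, 53.4 and 40.7 in the isotype tables, a log2 of 1.17 (0.76 to 1.60), and 1.27 in the remaining cells. Cdip1, a pro-apoptotic gene, had 45.1, 45.4 and 44.4 against 13.6, 21.8 and 16.9, a log2 of 1.32, and 1.05 in the remaining cells. Dusp10, a phosphatase of the p38 and JNK kinases, had a log2 of 1.70, but 51 of its 57 agonist and 10 of its 11 isotype counts lay in the doublet-like cells, and the remaining 6 and 1 are too few for a ratio. Only Crem was also among the 12 genes the rule would name as higher in the remaining cells.

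Those other 11 genes were Bcl2l1, Cdadc1, Ell2, Hdac5, Hif1a, Mt1, Plin2, Rdh12, Sh2b2, Thbs1 and Usp8. Rdh12 (chr12:79208914-79222665, plus strand) had 522, 511 and 506 CPM in the agonist tables against 325, 346 and 329 in the isotype tables, with no overlap. It was present in 591 of 1207 agonist and 273 of 721 isotype members, and its log2 ratio was 0.60 (0.45 to 0.75), and 0.68 in the remaining cells. Bcl2l1, the anti-apoptotic Bcl-xL, had 64.4, 39.3 and 56.3 CPM against 28.4, 21.8 and 36.5 (log2 0.96, and 1.18). Hif1a, the oxygen-regulated factor that neutrophils need for glycolysis, had 279, 288 and 293 against 183, 171 and 198 (0.69, and 0.96). Ell2, an elongation factor of RNA polymerase II, had 283, 276 and 287 against 161, 153 and 157 (0.81, and 0.84). Thbs1, the matrix protein thrombospondin-1, had 998, 1270 and 1120 against 716, 793 and 649 (0.56, and 0.68), and Plin2, a lipid droplet coat protein, 226, 252 and 218 against 175, 164 and 160 (0.63, and 0.84). The tables of the treatments did not overlap for these genes. Mt1, a metallothionein, had 193, 282 and 137 against 146, 124 and 166, and its tables did overlap.

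Most neutrophil identity genes, like most genes measured, differed by less than 1.5-fold between the pools. Over all genes 7.43% were called higher and 4.65% lower, so few calls in a short list are no result about the list. Of 20 identity genes, 0 were called higher and 1, the chemokine receptor Cxcr1 (log2 -0.78), lower, and the summed level was 136000, 134000 and 129000 CPM in the agonist tables against 127000, 134000 and 127000 in the isotype tables. S100a8 had 53000, 51100 and 49900 CPM against 44200, 46700 and 44900, a log2 of 0.19, while S100a9 had a log2 of -0.07. The B cells of the agonist pool also held more S100a8, at 2680 CPM against 1190, whereas T cells held 853 against 840. None of the 9 secondary granule, 11 tertiary granule, 8 NADPH oxidase, 10 Fc and complement receptor and 10 IL-1 axis genes measured passed 1.5-fold in either direction. In the remaining cells 2 of 9 secondary granule genes, Chil3 (-0.77) and Ceacam1 (-0.70), and 1 of 9 Fc and complement receptor genes, the inhibitory receptor Fcgr2b (-1.01), were called lower. At least 10% of the 31-base words of these 3 genes occur in other genes, so their counts are uncertain. Of the primary granule list 1 gene was measured, Nkg7, which NK and T cells also express, at a log2 of 0.97 from 150 agonist and 48 isotype counts, of which 6 and 9 lay in the remaining cells. Il1b stood at -0.09, Cybb, the catalytic oxidase subunit, at 0.01, and Padi4, the enzyme of extracellular traps, at 0.31.

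**Figure D5:**
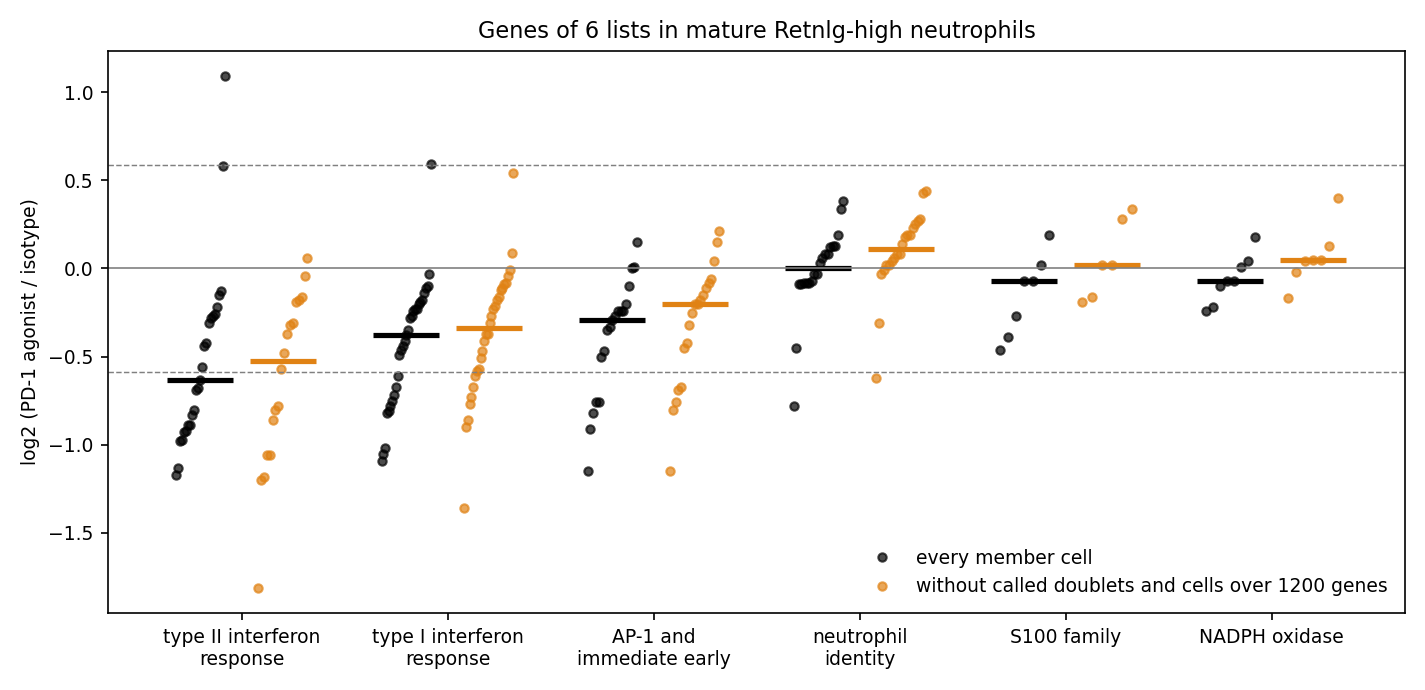
Log2 ratio of the PD-1 agonist pool over the isotype pool (vertical axis) for the measured genes of 6 lists, 1 point per gene, in every member cell (black, left) and without called doublets and cells over 1200 genes (orange, right). Thick bars are medians, at -0.63 and -0.53 for the type II interferon list, and dashed lines mark 1.5-fold.

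Several chemokine and cytokine genes were nearer to 0 once the doublet-like cells were left out. Of 10 chemokines 2 were called lower, Ccl2 and Ccl3 (both log2 -0.78), and 1 higher, Ccl5. Ccl3 stood at 0.14, Ccl4 at -0.06 and Tnf at -0.12 in the remaining cells, against -0.78, -0.56 and -0.63 in all members. Cxcl2 was at -0.23 and -0.11. Of 20 genes of Tnf and NF-kB feedback, Tnf and Icam1 were called lower and 0 higher. Cxcr4, the bone marrow homing receptor that aged neutrophils carry, was detected in 43.2% of agonist and 57% of isotype members, with a log2 of -0.54 (-0.43 in the remaining cells). The same order held in B cells, at 60.8% and 73.2%, and in T cells, at 45.6% and 58.9%. Cd274, which encodes the PD-1 ligand PD-L1, had a log2 of -0.56 (-0.79 to -0.32), short of 1.5-fold, and 12.1% of its 31-base words occur in other genes. None of the 8 measured PD-1 ligand and B7 family genes was called.

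The same contrast was made in the other gates. In activated neutrophils, where 5.23% of 8228 genes were called higher and 4.69% lower, 3 of 27 type II and 2 of 32 type I interferon genes were called lower, with medians of -0.26 and -0.22. In neutrophils with fewer than 3 Retnlg counts, where 6.96% of 4370 genes were called higher and 5.72% lower, 8 of 24 type II genes were lower, with a median of -0.41. There 3 of 29 type I genes were lower, with a median of -0.23. Background shares of genes called higher and lower were 6.96% and 3.85% in B cells and 5.24% and 3.18% in T cells. In B cells the medians were -0.35 for type II and -0.25 for type I, and in T cells -0.10 and -0.02. Gbp2 had a log2 of -1.17 (-1.35 to -1.0) in members, -0.45 (-0.52 to -0.38) in activated neutrophils, -0.76 in neutrophils with little Retnlg, -0.65 in B cells and -0.02 in T cells. The counting intervals of members and activated neutrophils did not overlap, with 1 pool of each. The activated gate here kept its doublet-like cells, 354 in the agonist and 450 in the isotype pool. Without them, activated cells held 991 agonist and 1620 isotype CPM of Gbp2, and 715 and 938 of Irf1. Those levels were scaled within each pool, and no ratio between treatments was made from them. How much of the gap between members and activated cells lies in doublet-like cells was not tested. Irf1 stood at -0.80 in members, -0.23 in activated neutrophils and -0.71 in neutrophils with little Retnlg, and Ifi47 at -1.05, -0.39 and -0.84.

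The AP-1 list had medians of -0.29 in members, -0.06 in activated neutrophils, -0.16 in neutrophils with little Retnlg, 0.07 in B cells and 0.01 in T cells. Jun stood at -1.15 in members, -0.38 in activated neutrophils, -0.36 in those with little Retnlg, 0.07 in B cells and -0.18 in T cells. In the same order Fosb stood at -0.82, -0.44, -0.54, 0.22 and 0.09. Rdh12 was higher in the agonist pool at 0.60 in members, 0.96 in activated neutrophils, 1.27 in those with little Retnlg and 0.81 in B cells, and stood at -0.04 in T cells. In the cells rich in granule genes it was present in 11 of 24 agonist cells (45.8%, 25.6% to 67.2%) and 14 of 22 isotype cells (63.6%, 40.7% to 82.8%). Thbs1 stood at 0.56 in members, 0.31 in activated neutrophils, 0.35 in those with little Retnlg, 1.12 in B cells and 1.21 in T cells. Hif1a stood at 0.69 in members, 0.37 in activated neutrophils, -0.01 in those with little Retnlg, -0.07 in B cells and 0.04 in T cells. Whether these ratios differ between cell classes beyond the spread between mice was not tested, for want of a second pool.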

How the data were processed

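Droplet single-cell RNA libraries of sorted lung CD45+ cells, 3 tables per treatment, were deposited as cell by gene tables of estimated counts per gene, with the authors' total count, expressed gene count and percent of mitochondrial and ribosomal counts per cell, per the file headers. Partek and the build mm10 are named per the submitters' processing notes; the aligner and annotation were not given in the sources used here. Between 1.73% and 1.86% of non-zero deposited expected counts were not whole, and the 20882 gene columns held 97.1% of the total count. Counts on strand are not stated, so a gene and its antisense partner cannot be told apart.

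Each barcode was kept once per treatment, as the record with the highest total count, and cells with 500 to 4000 genes and at most 15000 counts were gated. The barcodes numbered 13728 in the agonist and 12448 in the isotype pool. Members' counts were summed per pool (2386520 agonist and 1485251 isotype counts), scaled by TMM in edgeR 4.0.16 (R 4.3.3), used for scaling only, and compared as log2 ratios with exact conditional 95% intervals. Shares have Clopper-Pearson 95% intervals, and a count of 0 allows 3 cells. Scrublet, run in scanpy 1.11.5 with a score threshold of 0.25 and 0.1 as the expected rate, called doublets, which the main values keep. Thinning was to 1000 counts per cell. Python 3.11.15, numpy 2.4.6, scipy 1.17.1, pandas 2.3.3 and matplotlib 3.10.9 were used. The ratios were checked on simulated data.

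Genes were called at 1.5-fold with at least 50 counts over both pools. Named genes were the 12 per direction whose interval bound nearest 0 lay farthest from it, among protein-coding genes, leaving out ribosomal, mitochondrial, histone, immunoglobulin, T cell receptor, unnamed and gate genes, genes with at least 25% of a pool's counts in 1 cell, and genes with at least 10% of their 31-base words in another gene. Against other gates they were the 10 per direction with the largest smaller ratio of both pools, and the 15 most uneven genes and 8 most like Retnlg were ranked by the smaller of both pools. Of the gene columns, 20459 matched the annotation. Members, rule and 35 gene lists were chosen with earlier results of these data known. Alternatives were the Retnlg threshold, gene and count minimums, fold, scaling, thinning, each table left out, and, added after the data were seen, doublet-like cells left out, also from the activated gate, and a minimum of 300 genes.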

Additional observations from a re-analysis of the deposited data

How the results depend on the processing

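The share of members among kept cells was 9.09% in the agonist and 5.74% in the isotype pool at a Retnlg threshold of 5, and 11.2% and 7.48% at 1. It was 8.5% and 5.74% when doublet-like cells were left out of the members but not out of the kept cells. With a minimum of 300 genes the agonist share was 10.5%. Among the 4 neutrophil gates, members were 41.8% and 29.5% at a threshold of 5, and 51.5% and 38.4% at 1. After thinning they were 49.7% and 37.3%. They were 39.1% and 29.4% when doublet-like cells were left out of the members but the 4 gates kept all their cells. Leaving cells out of the members alone can only lower a share. The agonist share was the higher in each setting. Genes past 1.5-fold numbered 1587 higher and 1085 lower at a minimum of 10 counts, 3068 and 4553 at 1 count, 254 and 162 after thinning, and 198 and 36 at 2-fold; 272 were higher without doublet-like cells, where fewer genes were tested. Directions at a minimum of 1 count are not reliable, because a pool without a count of a gene was given a stand-in count. Without doublet-like cells, Cst7 had 1 agonist count and no isotype count, yet a log2 of -2.14. Mx2 had 1 isotype count and no agonist count, yet a log2 of 1.03. The numbers 3068 and 4553 are therefore no result about direction. The cause of the other moves was not tested. Leaving out 1 table at a time gave 413 to 492 genes higher and 256 to 288 lower, agonist shares of 9.69% to 10% of kept cells and 44.5% to 45.8% of neutrophils, and isotype shares of 6.49% to 6.66% and 33.3% to 34.1%.

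Among the 24 genes named by the rule, directions turned for 3 after thinning, Cd79b (log2 0.49), Ms4a4b (-0.53) and Serpinb6b (-0.19), and for 3 without doublet-like cells, Ccl5 (-0.21), Gramd3 (-0.10) and Ms4a4b (-0.29). Without doublet-like cells Ccl3, Nlrc5 and Tlr1, outside that rule, also turned, to 0.14, 0.06 and 0.08. Over all settings the median log2 stayed between -0.64 and -0.28 for the type II interferon list, -0.40 and -0.29 for type I and -0.31 and -0.20 for AP-1, and spanned -0.53 to 1.54 for T cell markers and -0.33 to 0.09 for chemokines. Gbp2 lay between -1.30 and -0.88, Irf1 between -0.86 and -0.70, Jun between -1.16 and -0.77 and Crem between 1.00 and 1.27. No paired analysis was possible because tables of 1 treatment share cells and no test was made. One pool per treatment, with mice not separated, limits every comparison; genes under about 50 counts are not resolved at this depth.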

Other observations

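Other gene groups of the members are given here as values of the agonist pool against the isotype pool. Over all genes 7.43% were called higher and 4.65% lower, and 6.38% and 4.76% without doublet-like cells. A single called gene in a list of this size is near those shares and is no result about the list. Of 16 survival and apoptosis genes, Bcl2l1 was called higher and 0 lower, but without doublet-like cells 3 of 15 were lower, Bcl2a1a (log2 -0.73), Casp8 (-0.79) and Cflar (-0.61), beside Bcl2l1 higher. Of the 31-base words of Bcl2a1a 79.6% and of those of Cflar 13% occur in other genes. In all members Mcl1, a short-lived survival factor of neutrophils, stood at log2 -0.09 and Bcl2l11, the pro-apoptotic Bim, at 0.42. Of 14 glycolysis and hypoxia genes, Hif1a, Pgk1 and Eno1 were called higher, but 68% of the 31-base words of Pgk1 and 73% of those of Eno1 occur in other genes. Slc2a1, a glucose transporter, stood at 95.3 and 80.6 CPM, and Slc7a11, a cystine transporter, had 1330, 1290 and 1200 CPM in the agonist tables against 1030, 1000 and 969 in the isotype tables, a log2 of 0.34.

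Of 13 genes that respond to glucocorticoid or FoxO, Ddit4 (log2 0.82) and Pik3ip1 (0.83) were called higher and 0 lower, and 0 were called without doublet-like cells, while in all members Tsc22d3, a glucocorticoid target, stood at -0.41 and Fkbp5, another, at 0.20. Of 14 Toll-like and innate sensors, Nod2 was called higher, from 37 agonist and 13 isotype counts, and Tlr1 lower (log2 -0.68), which stood at 0.08 from 14 and 9 counts without doublet-like cells, while Tlr2 stood at 0.16 and Tlr4 at -0.10. Tlr1, Ddit4, Pik3ip1, Bcl2a1a, Casp8 and Cflar were named after their values were seen. Mcpt8, a basophil protease, had 0 counts in agonist members and 58 in isotype members, all from 2 cells.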
